A study of Mus musculus with 14 samples.

Results

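The T cell receptor β variable segments of the mouse (Trbv) were described in bulk RNA-sequencing counts of sorted T cells. Members were all rows whose gene symbol starts with Trbv and a digit, 35 of the 50508 rows in each of 2 count tables. In the GENCODE annotation of GRCm38, 22 of them are variable genes and 13 are variable pseudogenes. The measure was the share of each segment in the summed Trbv counts of its library, so that the shares of a library add up to 100%.

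Sequenced cells came from a study of ILTCk, which are innate-like αβ T cells with killer function that infiltrate tumours, together with the thymic progenitors of these cells (ILTCkP). There were 5 bulk groups of 2 libraries each, and 4 single-cell samples of the series were not analysed here. The thymic table held ILTCkP and CD8SP libraries, both labelled C57BL/6. ILTCkP were sorted as CD4-negative or dull and CD8α-negative or dull cells that did not bind the CD1d tetramer loaded with PBS-57, and CD8SP are CD8 single-positive thymocytes. The tumour table held NK1.1+ and NK1.1- ILTCk libraries and those of PD1+ Tconv, which are conventional T cells with PD-1 on their surface, all labelled retrogenic, that is, from mice reconstituted with stem cells that carry a transferred T cell receptor. NK1.1+ ILTCk were gated on CD45+ TCRβ+ TCRγδ- CD4- CD8α+ PD-1- NK1.1+ cells, and PD1+ Tconv differed from that gate in being PD-1+ and NK1.1-. Neither the gate and tissue of NK1.1- ILTCk nor the introduced receptor, the tumour model and the age of the animals are given in the sources used here. The characteristics name both ILTCk groups as ILTCkP, whereas the titles, which were followed, name them ILTCk. Nothing in the labels says that the 2 libraries of a group came from separate animals, and p-values therefore speak only of the spread between these libraries.

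A T cell builds its receptor β chain by joining 1 variable, 1 diversity and 1 joining segment during thymic development, and the joined exon is then spliced to the constant gene Trbc1 or Trbc2. The variable segment encodes most of the variable domain, including 2 of its 3 loops that contact peptide and MHC, and the join encodes the third loop. Because most T cells express 1 functional β chain, the Trbv transcripts of a bulk library reflect the β chains that its cells carry. In the tumour table these can include a transferred chain, whose segment is not given in any source used here, and its part in the shares was not tested. An even spread over segments is typical of a diverse population, whereas expanded clones raise single segments. Trbv13 segments (called Vβ8 in earlier nomenclature), Trbv29 (Vβ7) and Trbv1 (Vβ2) are the segments that mouse CD1d-restricted natural killer T cells mostly use.

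The germline ends of 8 of the segments that led a library or differed in share, a selection and not all of them, are printed here. That of Trbv24, the pseudogene with the most counts, is added. They come from the GENCODE transcripts, 5′ to 3′ on the coding strand, and are shown because the third of these loops starts there. Capitals mark the codon of the conserved cysteine at which the third loop begins.
Trbv12-1: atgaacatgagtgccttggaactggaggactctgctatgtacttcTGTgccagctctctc
Trbv13-1: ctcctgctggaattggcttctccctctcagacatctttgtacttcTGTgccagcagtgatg
Trbv13-2: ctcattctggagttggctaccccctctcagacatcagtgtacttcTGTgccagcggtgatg
Trbv15: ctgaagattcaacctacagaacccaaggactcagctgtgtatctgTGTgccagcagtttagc
Trbv29: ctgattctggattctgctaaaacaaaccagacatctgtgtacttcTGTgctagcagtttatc
Trbv1: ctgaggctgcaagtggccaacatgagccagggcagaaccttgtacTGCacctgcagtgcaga
Trbv20: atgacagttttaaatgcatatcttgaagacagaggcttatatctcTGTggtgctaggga
Trbv31: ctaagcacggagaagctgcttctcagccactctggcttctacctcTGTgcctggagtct
Trbv24: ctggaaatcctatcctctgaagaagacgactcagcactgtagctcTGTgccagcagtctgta
The cysteine codon was TGC in Trbv1 and TGT in the other 8. Trbv24, the single pseudogene of the 9, carries an in-frame stop codon a little upstream of its cysteine. All 35 segments lie on chromosome 6 of GRCm38, from Trbv1 at chr6:40891229-40891885 to Trbv30 at chr6:41281376-41281990 on the plus strand, and Trbv31 lies apart at chr6:41557691-41558452 on the minus strand. Trbv1 is separated from the other segments by trypsinogen genes, and Trbv31 lies beyond the constant genes and joins by inversion. Trbv12-1 (chr6:41113550-41114067), Trbv13-1 (chr6:41116007-41116468) and Trbv13-2 (chr6:41121396-41121832) lie in 1 stretch of repeated Trbv12 and Trbv13 copies. Of the 50-base windows of each annotated transcript, 1.19% of those of Trbv12-2 and 0.344% of those of Trbv13-2 and of Trbv13-3 also occurred in another segment, and none did for the other segments with counts except the pseudogene Trbv12-3.

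Library totals ranged between 16530085 and 32097301 counts, of which 1235 to 14814 fell on Trbv rows. No 2 libraries of a group were copies of each other: the Trbv counts differed between replicates by a chi-square per degree of freedom of 4.14 in CD8SP and of 12.4 to 262 in the other 4 groups, where sampling alone gives about 1. The 6 T cell markers (Trbc1, Trbc2, Cd3d, Cd3e, Cd3g and Cd247) were detected in every group. Their sum was 482 to 6225 CPM (counts-per-million over all genes of the library), and only Trbc1 and Trbc2 among them belong to the β chain. NK1.1+ ILTCk replicate 2 stood lowest in that sum and highest in the sum of 8 macrophage markers, 15288 CPM. The macrophage sum was 6966 CPM in replicate 1 of that group, 3421 and 2446 CPM in NK1.1- ILTCk, 143 and 644 CPM for PD1+ Tconv, and 17.7 to 24.9 CPM in the thymic libraries. No macrophage marker was at 0 in every library.

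Trbv transcripts were most abundant in CD8SP and in 1 of the PD1+ Tconv libraries, and least abundant in NK1.1+ ILTCk replicate 2. The summed Trbv level was 202 and 421 CPM in ILTCkP, against 483 and 491 CPM in CD8SP. Of the tumour table, NK1.1+ ILTCk had 284 and 49.3 CPM, NK1.1- ILTCk had 163 and 110 CPM, and PD1+ Tconv had 509 and 205 CPM. Both ILTCkP libraries lay below both CD8SP libraries, whereas NK1.1+ ILTCk overlapped with PD1+ Tconv and NK1.1- ILTCk lay below it. In bulk samples such as those of the tumour table, fewer T cells and less receptor RNA per T cell cannot be told apart. Between ILTCkP and CD8SP the constant genes Trbc1 and Trbc2 differed little, by log2 fold changes of -0.16 and -0.15. What lowered the Trbv level in ILTCkP was not tested.

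Set against the transcripts of the constant genes Trbc1 and Trbc2, which every β chain transcript carries, the Trbv level was more alike. There were 13.6 and 26.2 Trbv counts per 100 Trbc counts in ILTCkP, against 26.1 and 26.8 in CD8SP. In the tumour table there were 30.6 and 31.6 for NK1.1+ ILTCk, 29.8 and 31.5 for NK1.1- ILTCk, and 34.6 and 23.0 for PD1+ Tconv. ILTCkP replicate 1 was lowest of the 10 libraries, and NK1.1+ ILTCk replicate 2, lowest in CPM, was slightly above its replicate. Trbc1 held 43.6% of the Trbc counts in both ILTCkP libraries and 45.0% and 42.5% in CD8SP. Its share was 27.0% and 30.4% for NK1.1+ ILTCk, 35.1% and 36.8% for NK1.1- ILTCk, and 25.0% and 18.5% for PD1+ Tconv. No count fell on a joining or diversity row (Trbj or Trbd) in any library, so joins were not seen.

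**Figure D1:**
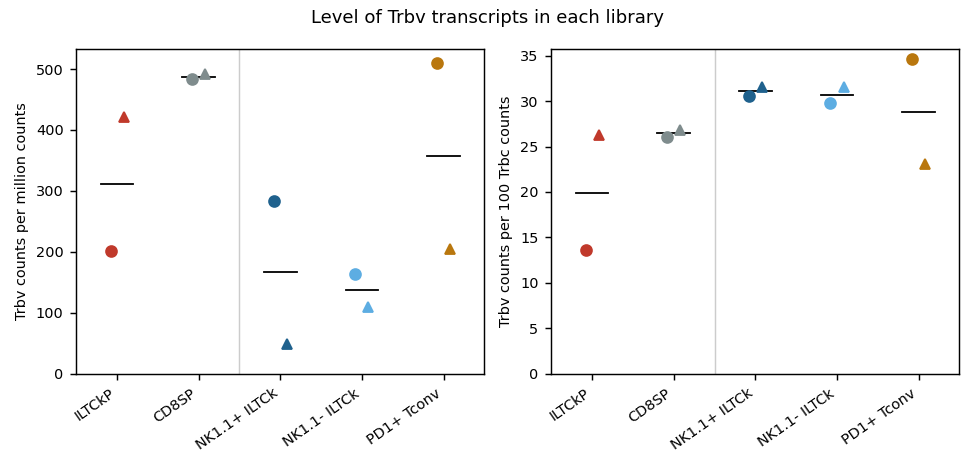
Summed Trbv level in CPM (left) and per 100 Trbc counts (right) in each of the 10 libraries, by group, with circles for replicate 1, triangles for replicate 2 and a line at the mean of 2 libraries. NK1.1+ ILTCk replicate 2 is lowest on the left at 49.3 CPM but at 31.6 on the right, where ILTCkP replicate 1 is lowest at 13.6.

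All 22 annotated variable genes were detected, 20 of them in all 10 libraries. Trbv30 had no count in NK1.1+ ILTCk replicate 2, where a count of 0 allows a share of up to 0.243%, and Trbv21 had 12 counts in 5 libraries together. Altogether 14 segments held at least 5% of the Trbv counts in some library: Trbv1, Trbv2, Trbv3, Trbv12-1, Trbv12-2, Trbv13-1, Trbv13-2, Trbv13-3, Trbv14, Trbv15, Trbv16, Trbv17, Trbv19 and Trbv29. Pseudogenes made up 0.0533 to 0.252% of the Trbv counts, and 5 of the 13 (Trbv8, Trbv11, Trbv25, Trbv27 and Trbv28) had no count in any library. Most pseudogene counts belonged to Trbv24, 110 counts over 9 libraries, whose germline sequence is printed with its stop codon in the list of segment ends.

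**Figure D2:**
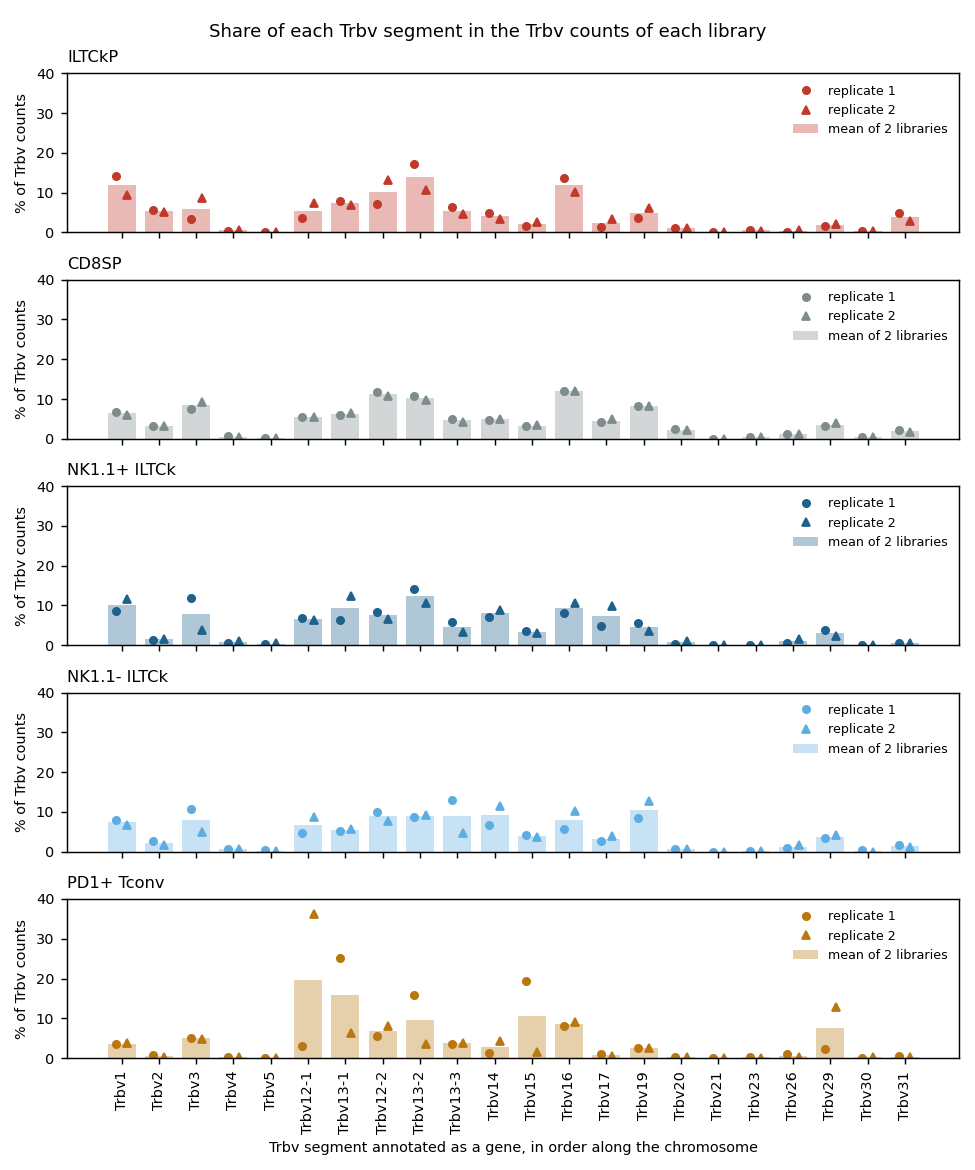
Share of the Trbv counts (percent, linear axis) of the 22 segments annotated as genes, in order along the chromosome, with 1 panel per group, circles for replicate 1, triangles for replicate 2 and bars for the mean of 2 libraries. Trbv12-1 in PD1+ Tconv replicate 2 reaches 36.3% and Trbv13-1 in PD1+ Tconv replicate 1 reaches 25.2%, and the tallest point of the other 4 panels is Trbv13-2 at 17.2% in ILTCkP replicate 1.

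The comparison of ILTCkP with CD8SP asked how segment use in the progenitors differed from that of conventional CD8 thymocytes of the same strain. ILTCkP libraries gave larger shares to Trbv1, Trbv2 and Trbv31, which lie toward the ends of the locus, and to Trbv13-1 and Trbv23 within it. Smaller shares went to Trbv20, Trbv26, Trbv29, Trbv17 and Trbv19, among others. No segment passed edgeR's quasi-likelihood test of levels over all counts, which is not a test of shares. The same test scaled to the Trbv total called 0 segments as well. Both ILTCkP libraries lay outside the CD8SP range on the same side for 13 of the 20 segments with at least 0.5% in a library (65.0%, beside 47.5% of the α chain variable rows treated alike).

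Trbv1 held 14.1% and 9.52% of the Trbv counts in ILTCkP, against 6.85% and 6.03% in CD8SP. Trbv2 held 5.62% and 5.25% in ILTCkP, against 3.35% and 3.28% in CD8SP. Trbv31 held 4.85% and 2.84% in ILTCkP, against 2.12% and 1.85% in CD8SP. For each of these segments both ILTCkP libraries lay above both CD8SP libraries, and replicate 1 was the higher. Summed, the 3 segments made up 24.6% and 17.6% of the Trbv counts in ILTCkP, against 12.3% and 11.2% in CD8SP. This sum was formed after the values were seen, and it does not follow distance along the locus throughout. Trbv29 and Trbv30, the last segments before Trbv31, had lower shares in both ILTCkP libraries than in both CD8SP libraries. Trbv3, the neighbour of Trbv2, held 3.32% and 8.60% in ILTCkP, against 7.52% and 9.27% in CD8SP, so that its groups overlapped.

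Among the segments with smaller shares, Trbv20 differed by about the same factor in both ILTCkP libraries. It held 0.998% (95% exact binomial interval 0.755 to 1.29%, counting error only, as for all intervals here) and 1.01% (0.845 to 1.19%) in ILTCkP, against 2.39% (2.14 to 2.66%) and 2.21% (1.98 to 2.46%) in CD8SP. Trbv29 held 1.53% and 2.09% in ILTCkP, against 3.31% and 3.87% in CD8SP. Trbv26 held 0.232% and 0.577% in ILTCkP, against 1.15% and 1.20% in CD8SP. The ILTCkP libraries lay below the CD8SP libraries for all 3, with replicate 1 the lower of the pair for Trbv26 and Trbv29.

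Trbv17 held 1.32% and 3.39% in ILTCkP, against 4.20% and 4.89% in CD8SP. Trbv19 held 3.64% and 6.17% in ILTCkP, against 8.18% and 8.21% in CD8SP. Trbv15 held 1.71% and 2.63% in ILTCkP, against 3.17% and 3.42% in CD8SP. These groups did not overlap either, but replicate 2 of ILTCkP lay closer to CD8SP than replicate 1 did in all of them. For Trbv15 the binomial intervals of the nearest libraries overlapped. Trbv14 held 4.80% and 3.39% in ILTCkP, against 4.82% and 5.08% in CD8SP, so that its nearest libraries were closer than the counting error.

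The repeated Trbv12 and Trbv13 segments and Trbv16 carried large shares in both thymic groups. Trbv13-2 held 17.2% and 10.7% in ILTCkP, against 10.8% and 9.77% in CD8SP, and was the leading segment of ILTCkP replicate 1. Trbv12-2 held 7.20% and 13.1% in ILTCkP, against 11.9% and 10.7% in CD8SP, and led ILTCkP replicate 2. Trbv16 held 13.8% and 10.2% in ILTCkP, against 12.02% in both CD8SP libraries, which it led. The groups overlapped for all 3, since the ILTCkP libraries lay on either side of CD8SP or partly within its range. Trbv12-1 held 3.69% and 7.27% in ILTCkP, against 5.44% and 5.52% in CD8SP. Trbv13-3 held 6.31% and 4.53% in ILTCkP, against 4.94% and 4.36% in CD8SP. The groups overlapped for both, whereas Trbv13-1 was higher in ILTCkP, at 7.79% and 6.88%, against 6.02% and 6.48% in CD8SP. The binomial intervals of its nearest libraries overlapped, at 6.46 to 7.32% in ILTCkP and 6.09 to 6.89% in CD8SP.

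In count, 5 of 20 segments had shares that were higher in both ILTCkP libraries than in both CD8SP libraries (Trbv1, Trbv2, Trbv13-1, Trbv23 and Trbv31) and 8 had shares that were lower (Trbv14, Trbv15, Trbv17, Trbv19, Trbv20, Trbv26, Trbv29 and Trbv30). Of the 59 α chain variable rows (Trav), taken as shares of the Trav counts under the same minimum, 20.3% were higher and 27.1% lower. In all, 65.0% of the Trbv segments and 47.5% of the Trav rows did not overlap. For 5 of the 13 (Trbv13-1, Trbv14, Trbv15, Trbv23 and Trbv30) the binomial interval of an ILTCkP library overlapped that of a CD8SP library. The shares of a library are not independent, since a rise of 1 segment lowers the others.

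**Figure D3:**
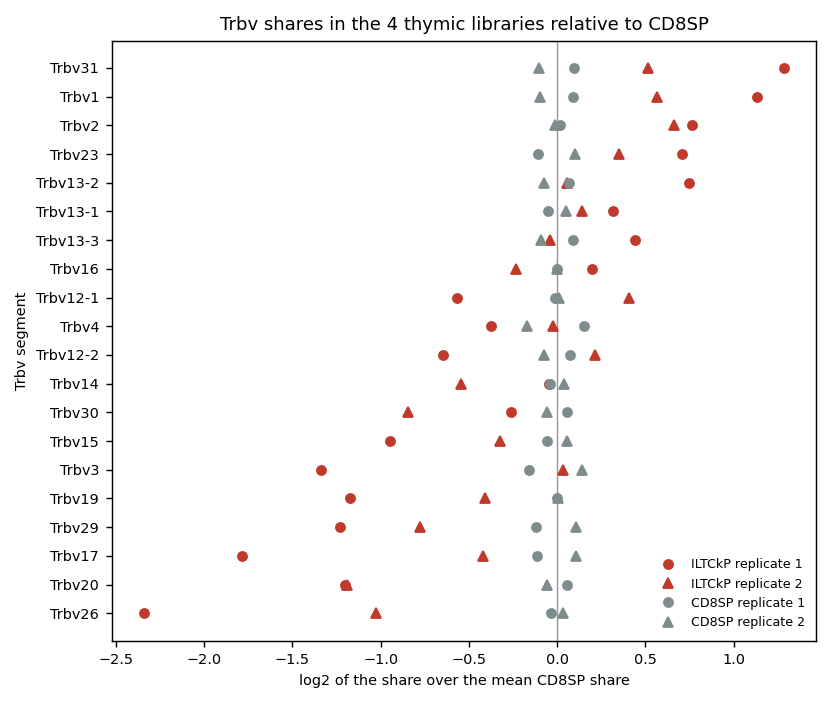
Log2 of each segment's share over its mean share in CD8SP, for the 20 segments with at least 0.5% of the Trbv counts in a thymic library, with red points for ILTCkP and grey points for CD8SP (circles replicate 1, triangles replicate 2). The CD8SP libraries stay near 0, with Trbv4 farthest from it at -0.17, while ILTCkP replicate 1 runs between 1.29 for Trbv31 and -2.34 for Trbv26.

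Over all counts instead of Trbv counts, 22 members passed the filter on low counts, and edgeR's quasi-likelihood test with Benjamini-Hochberg adjustment called 0 of them, where 4.71% of all 14634 genes were called. At an unadjusted p under 0.05, 4 members were lower in ILTCkP (Trbv14, Trbv20, Trbv26 and Trbv29) and none higher, where 9.06% of all genes were lower and 13% higher. The smallest adjusted p was that of Trbv20. It averaged 3.19 ± 1.39 CPM in ILTCkP and 10.8 ± 0.65 CPM in CD8SP (SD, n = 2 each, CPM scaled by TMM), a log2 fold change of -1.76 ± 0.47 (SE, adjusted p = 0.102 in edgeR's quasi-likelihood test). Trbv1, with the larger share, differed in level by 0.22 ± 0.29 on the log2 scale, with an adjusted p of 0.694 in the same edgeR test. DESeq2 called 2 members lower and none higher, Trbv20 with an adjusted p of 0.0123 and Trbv29 with an adjusted p of 0.0468, where 4.82% of all genes were called lower and 13.6% in either direction. The median log2 fold change of the 22 members was -0.61, and 19 of them were below 0, against a median of 0.01 over all genes. CPM values did not overlap between the groups for 12 members that were lower in ILTCkP and 1 that was higher, where the shares of all genes were 29.3% and 28.8%. Without ILTCkP replicate 2 edgeR called 12 members lower, where it called 7017 of 15646 genes, and without ILTCkP replicate 1 it called 1, Trbv20, where it called 2812 of 15705 genes.

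Of 10 other genes of the receptor and its assembly (Trbc1, Trbc2, Cd3d, Cd3e, Cd3g, Cd247, Rag1, Rag2, Dntt and Ptcra), Rag1, a subunit of the recombinase that cuts the segments, was the single one to pass the same edgeR test, where 4.71% of all genes passed. It fell to 0.51 ± 0.23 CPM in ILTCkP, against 5.96 ± 1.22 CPM in CD8SP (SD, n = 2 each), a log2 fold change of -3.51 ± 0.60 (edgeR adjusted p = 0.0343). Rag2, the other subunit, had a log2 fold change of -2.25 ± 0.83 with an edgeR adjusted p of 0.193, and Trbc1 and Trbc2 differed by -0.16 ± 0.20 and -0.15 ± 0.19. Dntt had a log2 fold change of -1.51 ± 0.52 with an edgeR adjusted p of 0.170. DESeq2 called Rag1 and Dntt lower, Dntt with an adjusted p of 0.0221, where 4.82% of all genes were called lower. All 5 γδ T cell markers were in the table, and their sum was 205 and 400 CPM in ILTCkP, against 21.5 and 18.1 CPM in CD8SP. Tcrg-C2 was the largest part in ILTCkP, at 73.6 and 227 CPM. Trdc was at 50.3 and 36.9 CPM there, against 16.7 and 15.0 CPM in CD8SP. The sum was not particular to ILTCkP: it was 1199 and 405 CPM for PD1+ Tconv, although gated TCRγδ-. For NK1.1+ ILTCk it was 723 and 113 CPM, and for NK1.1- ILTCk 390 and 171 CPM. Tcrg-C2 was the largest part there too, at 841 and 284 CPM for PD1+ Tconv. Trdc, by contrast, was highest in the ILTCkP libraries. It was at 32.5 and 14.4 CPM for PD1+ Tconv, 2.62 and 1.20 CPM for NK1.1+ ILTCk, and 2.07 and 1.44 CPM for NK1.1- ILTCk. The 6 double-positive thymocyte markers summed to 41.0 and 55.4 CPM in ILTCkP, against 3216 and 2792 CPM in CD8SP. Most of the sum in CD8SP was Cd8b1, a coreceptor chain that these cells carry, at 3122 and 2745 CPM, and Cd4 was at 22.8 and 18.2 CPM in ILTCkP, against 14.4 and 5.28 CPM in CD8SP. No gene of either list was at 0 in every library, and the part of these differences in the Trbv shares was not tested.

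In the tumour table, the comparisons asked how ILTCk of either NK1.1 state differed from PD1+ Tconv in the same kind of mice. Each PD1+ Tconv library was led by a few segments, and by different ones: Trbv13-1, Trbv15 and Trbv13-2 in replicate 1, and Trbv12-1, Trbv29 and Trbv16 in replicate 2. No ILTCk library had a segment as large as the first of either PD1+ Tconv library, and no single segment led all 6 libraries.

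Trbv13-1 held 6.32% and 12.4% in NK1.1+ ILTCk libraries and 5.32% and 5.79% in NK1.1- ILTCk libraries, against 25.2% and 6.44% in PD1+ Tconv. Trbv15 held 3.71% and 3.00% in NK1.1+ ILTCk libraries and 4.32% and 3.66% in NK1.1- ILTCk libraries, against 19.5% and 1.57% in PD1+ Tconv. Trbv13-2 held 14.1% and 10.6% in NK1.1+ ILTCk libraries and 8.77% and 9.29% in NK1.1- ILTCk libraries, against 15.8% and 3.52% in PD1+ Tconv. In each case PD1+ Tconv replicate 1 was the highest of the 6 tumour-table libraries, and for Trbv15 and Trbv13-2 replicate 2 was the lowest. Trbv12-1 held 6.93% and 6.32% in NK1.1+ ILTCk libraries and 4.73% and 8.71% in NK1.1- ILTCk libraries, against 3.02% and 36.3% in PD1+ Tconv. Trbv29 held 3.84% and 2.43% in NK1.1+ ILTCk libraries and 3.47% and 4.11% in NK1.1- ILTCk libraries, against 2.31% and 12.9% in PD1+ Tconv. Here replicate 2 of PD1+ Tconv was the highest and replicate 1 the lowest of the 6 libraries, so both ILTCk groups lay between the PD1+ Tconv libraries. The counting intervals were far narrower than these gaps, with 34.7 to 38.0% for Trbv12-1 in replicate 2 and 24.5 to 26.0% for Trbv13-1 in replicate 1.

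Of the other 9 large segments, 5 had smaller shares in both PD1+ Tconv libraries than in all 4 ILTCk libraries. The shares of a library are not independent. In PD1+ Tconv the 3 leading segments held 60.5% and 58.2%, which leaves less for the others, and the part of this was not tested. Between NK1.1+ ILTCk and PD1+ Tconv, 38.9% of 18 segments did not overlap, beside 40.3% of 72 Trav rows. For NK1.1- ILTCk these values were 61.1% and 48.6%. Trbv1 held 8.74% and 11.7% in NK1.1+ ILTCk libraries and 8.03% and 6.74% in NK1.1- ILTCk libraries, against 3.44% and 3.78% in PD1+ Tconv. Trbv14 held 7.21% and 8.99% in NK1.1+ ILTCk libraries and 6.70% and 11.5% in NK1.1- ILTCk libraries, against 1.17% and 4.37% in PD1+ Tconv. Trbv19 held 5.65% and 3.48% in NK1.1+ ILTCk libraries and 8.47% and 12.7% in NK1.1- ILTCk libraries, against 2.62% and 2.66% in PD1+ Tconv. All 4 ILTCk libraries lay above both PD1+ Tconv libraries for these segments. The same held for Trbv17, at 4.87% and 9.80% in NK1.1+ ILTCk libraries and 2.73% and 3.90% in NK1.1- ILTCk libraries, against 1.12% and 0.561% in PD1+ Tconv. It also held for Trbv2, at 1.39% and 1.70% in NK1.1+ ILTCk libraries and 2.68% and 1.77% in NK1.1- ILTCk libraries, against 0.811% and 0.414% in PD1+ Tconv. For Trbv19, binomial intervals overlapped between NK1.1+ ILTCk replicate 2 and PD1+ Tconv.

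For the other 4 of the large segments, at least 1 ILTCk library fell within the range of PD1+ Tconv or beyond it on the other side. Trbv3 held 11.9% and 3.97% in NK1.1+ ILTCk libraries and 10.7% and 4.97% in NK1.1- ILTCk libraries, against 5.08% and 4.87% in PD1+ Tconv. Trbv12-2 held 8.49% and 6.56% in NK1.1+ ILTCk libraries and 10.1% and 7.72% in NK1.1- ILTCk libraries, against 5.55% and 8.09% in PD1+ Tconv. In both ILTCk groups replicate 1 had the larger share of these segments. Trbv13-3 held 5.86% and 3.32% in NK1.1+ ILTCk libraries and 13.1% and 4.60% in NK1.1- ILTCk libraries, against 3.52% and 3.93% in PD1+ Tconv, and it led NK1.1- ILTCk replicate 1. Trbv16 held 8.22% and 10.5% in NK1.1+ ILTCk libraries and 5.69% and 10.3% in NK1.1- ILTCk libraries, against 8.17% and 8.98% in PD1+ Tconv. Its PD1+ Tconv shares lay within the range of each ILTCk group or at its lower edge.

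Evenness of use put the same pattern in 1 number per library. The effective number of segments, which is the exponential of the Shannon entropy of the shares and gives the number of equally used segments with that entropy, was 14.1 in both NK1.1+ ILTCk libraries and 14.9 and 14.3 in NK1.1- ILTCk libraries, against 9.83 and 8.93 in PD1+ Tconv. In the thymus it was 13.2 and 14.9 in ILTCkP, against 15.6 and 15.7 in CD8SP. The PD1+ Tconv libraries were the least even of all 10, and the CD8SP libraries the most even. NK1.1+ ILTCk exceeded PD1+ Tconv by 4.73 effective segments and NK1.1- ILTCk did so by 5.25, each without overlap between the libraries of the groups. Both comparisons share the same PD1+ Tconv libraries. ILTCkP was lower than CD8SP by a difference of -1.66, which was -0.82 without ILTCkP replicate 1 and -2.50 without ILTCkP replicate 2. With 2 libraries against 2, the exact two-sided permutation test gave p = 0.333 in each of these comparisons, the smallest value it allows.

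The 3 leading segments of a library together held 34.7% in both NK1.1+ ILTCk libraries and 33.9% and 34.5% in NK1.1- ILTCk libraries, against 60.5% and 58.2% in PD1+ Tconv. They held 45.1% and 34.1% in ILTCkP, against 34.7% and 32.5% in CD8SP. Expressed as the number of segments needed to reach 50% of the Trbv counts, both PD1+ Tconv libraries needed 3, ILTCkP replicate 1 needed 4, and the other 7 libraries needed 5 or 6. The 5 epithelial markers, none at 0 in every library, summed to 2095 and 2197 CPM for NK1.1+ ILTCk and 3040 and 3588 CPM for NK1.1- ILTCk, against 785 and 1348 CPM for PD1+ Tconv. Both ILTCk groups lay above PD1+ Tconv in this sum, as in that of the macrophage markers, and the part of either in the evenness was not tested. The epithelial sum was 7.37 to 10.3 CPM in the thymic libraries.

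**Figure D4:**
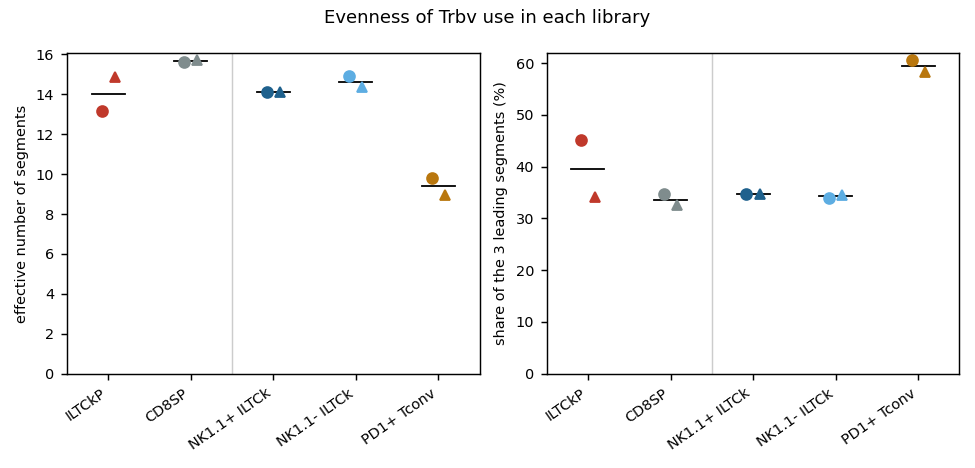
Effective number of Trbv segments (left) and share of the 3 leading segments in percent (right) of each library by group, with circles for replicate 1, triangles for replicate 2 and a line at the mean of 2 libraries. PD1+ Tconv sits apart at 9.83 and 8.93 effective segments and 60.5% and 58.2%, and the other 8 libraries lie at 13.2 or more and 45.1% or less.

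Counted by segment, 7 of 18 segments had shares that were higher in both NK1.1+ ILTCk libraries than in both PD1+ Tconv libraries (Trbv1, Trbv2, Trbv4, Trbv14, Trbv17, Trbv19 and Trbv20) and none was lower in both. Without overlap were thus 38.9% of the segments, beside 40.3% of 72 Trav rows, of which 30.6% were higher and 9.72% lower. For NK1.1- ILTCk against the same PD1+ Tconv libraries, 10 segments were higher (Trbv1, Trbv2, Trbv4, Trbv13-3, Trbv14, Trbv17, Trbv19, Trbv20, Trbv26 and Trbv31) and Trbv13-1 was lower. This is 61.1% of 18 segments, beside 48.6% of 72 Trav rows, with 38.9% higher and 9.72% lower. Binomial intervals overlapped between a library of either group for 3 of the 7 segments in NK1.1+ ILTCk (Trbv4, Trbv19 and Trbv20) and for 5 of the 11 in NK1.1- ILTCk (Trbv4, Trbv13-1, Trbv13-3, Trbv20 and Trbv26). The comparisons share the PD1+ Tconv libraries, so a low share there enters both.

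By level over all counts, 21 members passed the filter, and edgeR's quasi-likelihood test with Benjamini-Hochberg adjustment called 0 of them in NK1.1+ ILTCk against PD1+ Tconv, as it called 0% of all 18091 genes. At an unadjusted p under 0.05, 1 member (Trbv13-1) was lower, where 7.34% of all genes were lower. DESeq2 called Trbv13-1 lower with an adjusted p of 0.0425, where 3.34% of all genes were called lower. Trbv13-1 averaged 11.4 ± 6.37 CPM in NK1.1+ ILTCk libraries and 66.4 ± 68.9 CPM in PD1+ Tconv (SD, n = 2 each), a log2 fold change of -2.54 ± 0.87 with an adjusted p of 0.274 in edgeR's test. The SD in PD1+ Tconv was as large as its mean, since unscaled levels were 129 CPM in replicate 1 and 13.2 CPM in replicate 2. Without PD1+ Tconv replicate 1 the log2 fold change was -0.61, and with all libraries scaled to the Trbv total it was -0.76. The median over the 21 members was -0.92, against -0.04 over all genes. CPM values were lower without overlap for 5 members and higher for 1, where the shares of all genes were 20.8% and 20.7%.

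In NK1.1- ILTCk against PD1+ Tconv, edgeR's quasi-likelihood test again called 0 of 21 members, and 0% of all genes. At an unadjusted p under 0.05, 4 members were lower (Trbv12-1, Trbv13-1, Trbv15 and Trbv16), where 5.91% of all genes were lower. Their log2 fold changes were -2.82 ± 1.06, -3.28 ± 0.90, -3.23 ± 1.35 and -1.70 ± 0.66, with adjusted p-values between 0.361 and 0.416 in edgeR's test. Scaled to the Trbv total instead of all counts, they were -1.55, -1.51, -1.40 and -0.10. Over all counts the T cell markers were lower as well, between -0.93 for Trbc1 and -2.17 for Cd3e. DESeq2 called Trbv13-1 with an adjusted p of 0.00750 and no other member, where 1.75% of all genes were called lower. For Trbv15 the direction rested on 1 library: without PD1+ Tconv replicate 1 its log2 fold change was 0.22. That of Trbv13-1 was -1.35 without the same library, and that of Trbv12-1 was -0.79 without PD1+ Tconv replicate 2. The median over the members was -0.67, against -0.04 over all genes, and 7 members were lower and 0 higher in CPM without overlap, where the shares of all genes were 22.7% and 23.1%. Summed T cell markers stood at 3126 and 482 CPM in NK1.1+ ILTCk libraries and 1599 and 976 CPM in NK1.1- ILTCk libraries, against 4485 and 2185 CPM in PD1+ Tconv. The macrophage sums given with the library totals ran the other way, and the part of either in the Trbv levels was not tested.

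Within ILTCk, the comparison of NK1.1+ with NK1.1- cells called no segment by any of the tests on levels. Shares of 4 of 18 segments were higher in both NK1.1+ libraries (Trbv1, Trbv13-1, Trbv13-2 and Trbv17) and those of 3 were lower (Trbv2, Trbv19 and Trbv31). That is 38.9% of the segments, beside 25.8% of 66 Trav rows, with 12.1% higher and 13.6% lower. For 6 of the 7, all but Trbv19, binomial intervals overlapped between the groups. Trbv31 held 0.462% and 0.567% in NK1.1+ ILTCk, against 1.77% and 1.19% in NK1.1- ILTCk. For Trbv17, by contrast, NK1.1+ ILTCk replicate 2 was the highest of the 4 libraries, at 9.80%, and the nearest pair of the groups was 4.87% and 3.90%. Per library the leading segment differed: Trbv13-2 (14.1%) and Trbv13-1 (12.4%) in NK1.1+ ILTCk, and Trbv13-3 (13.1%) and Trbv19 (12.7%) in NK1.1- ILTCk. edgeR's quasi-likelihood test called 0 of 21 members, and 0% of all genes, and at an unadjusted p under 0.05 it named 0 members, where 3.94% of all genes passed. DESeq2 called no member and 0.315% of all genes. CPM values were higher without overlap for 1 member and lower for 1, where the shares of all genes were 18.6% and 18.9%. The effective number differed by -0.53 between NK1.1+ ILTCk and NK1.1- ILTCk, less than the gap between the replicates of NK1.1- ILTCk, although the libraries of the groups did not overlap.

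How much of the repertoire 2 libraries had in common was measured as their overlap, the sum over segments of the lower of the 2 shares, which is 100% for identical use. Between replicates the overlap was 78.5% in ILTCkP, 95.7% in CD8SP, 79.0% for NK1.1+ ILTCk, 78.8% for NK1.1- ILTCk and 48.4% for PD1+ Tconv. The PD1+ Tconv replicates were the least alike of all 45 pairs of libraries, and the CD8SP replicates the most alike. Across groups, ILTCkP overlapped with CD8SP by 73.8 to 89.4%, and NK1.1+ ILTCk with NK1.1- ILTCk by 69.8 to 84.1%. ILTCkP replicate 2 was nearer to both CD8SP libraries than to ILTCkP replicate 1. PD1+ Tconv overlapped with NK1.1+ ILTCk by 56.1 to 63.8% and with NK1.1- ILTCk by 54.6 to 62.2%, more than its own replicates did with each other.

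Within a table, pairs of the same group overlapped by 76.1% on average and pairs of different groups by 69.7%, a difference of 6.36 percentage points. The exact one-sided permutation test over 45 regroupings gave p = 0.0667, with 0.0222 as the smallest value it could give. With either PD1+ Tconv library left out, the difference was 10.0 or 9.50 percentage points and the exact permutation p was 0.0444. This omission drops the pair of PD1+ Tconv replicates, so the same-group mean rose to 83.0%. The PD1+ Tconv library that stays enters only pairs of different groups, so these values do not speak of likeness within PD1+ Tconv. With any of the other 8 libraries left out, the difference was 3.05 to 8.44 percentage points and the exact permutation p was 0.0667 to 0.4. When the PD1+ Tconv group was left out altogether, an alternative chosen after seeing the data, it was 2.72 percentage points with an exact permutation p of 0.222, where 0.111 was the smallest possible. ILTCk libraries from the tumour table overlapped with thymic ones by 76.6 to 84.9% for NK1.1+ ILTCk with CD8SP, 83.7 to 84.7% for NK1.1- ILTCk with CD8SP, 74.0 to 83.6% for NK1.1+ ILTCk with ILTCkP and 68.1 to 79.9% for NK1.1- ILTCk with ILTCkP. These tables differ in the labelled mouse model and were fitted apart, so the values are a description with no test.

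**Figure D5:**
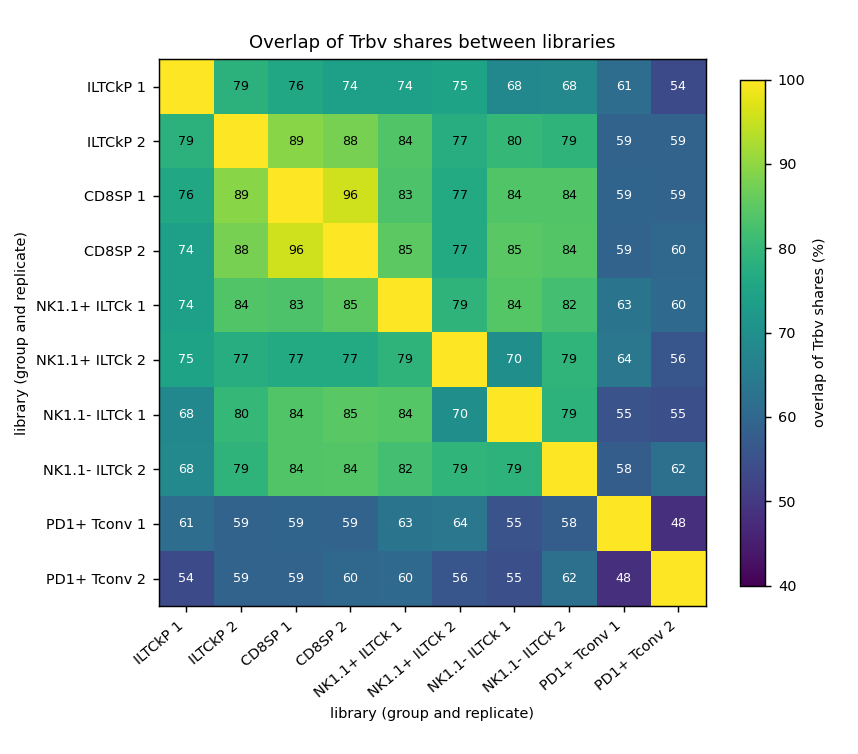
Overlap of Trbv shares in percent (colour scale from 40 to 100, values rounded in the cells) for all pairs of the 10 libraries, ordered by group and replicate. The last 2 rows and columns, PD1+ Tconv, are the darkest, with 48.4% between its own replicates, and the CD8SP replicates are the brightest pair off the diagonal at 95.7%.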

How the data were processed

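Bulk RNA-sequencing libraries of 5 sorted T cell groups were used, 2 per group. The deposited values were whole-number counts per gene symbol, in 2 tables, one thymic and one tumour, which the labels describe as raw counts. Per the submitters' processing notes, reads were placed on mm10 and the authors tested with DESeq. The aligner, the counter and its treatment of strand and of reads across joins are not given in any source used here. Receptor reads that span a join may not align, which would lower Trbv counts.

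Shares, effective numbers and overlaps were computed per library from the counts. Each table was fitted on its own with edgeR 4.0.16 (filterByExpr, TMM, robust quasi-likelihood test), with Benjamini-Hochberg adjustment over all genes tested and calls at an adjusted p under 0.05. DESeq2 1.42.0, limma-voom (limma 3.58.1), other scalings and filters, the replicate number as a block and each library left out were alternatives. Within-library sums used raw CPM, and means in the tests used CPM scaled by TMM. The edgeR, DESeq2 and overlap tests were also run on simulated data, whose outcome is not given here. Segments with at least 5% of the Trbv counts in a library were named in every library, as were 10 other receptor genes, and other segments by their counts, some after their values were seen. The members and lists were chosen with earlier results of these data known. Library totals were 16530085 to 32097301 counts. Coordinates and sequences came from GENCODE release M21 on GRCm38, and earlier names from RefSeq. Intervals and limits on counts of 0 (3 counts) cover counting error only.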

Additional observations from a re-analysis of the deposited data

Results flagged for a closer look

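Some differences pointed one way in the tumour table and the other way in the thymus, with every library of one group on the same side of its comparison. None of these differences between tables was tested, and both tumour comparisons share the PD1+ Tconv libraries. The effective number of segments was higher by 4.73 in NK1.1+ ILTCk and by 5.25 in NK1.1- ILTCk than in PD1+ Tconv, whereas ILTCkP minus CD8SP was -1.66. In percentage points of the Trbv counts, Trbv14 was higher by 5.33 in NK1.1+ ILTCk and by 6.35 in NK1.1- ILTCk than in PD1+ Tconv, against -0.85 for ILTCkP minus CD8SP. The same differences were 6.49 and 2.47 for Trbv17, against -2.19 in the thymus, and 1.93 and 7.94 for Trbv19, against -3.29 in the thymus. For Trbv13-1 the difference was -10.3 percentage points in NK1.1- ILTCk minus PD1+ Tconv, against 1.09 for ILTCkP minus CD8SP. That rested mainly on PD1+ Tconv replicate 1: Trbv13-1 held 5.32% and 5.79% in NK1.1- ILTCk, against 25.2% and 6.44% in PD1+ Tconv.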

How the results depend on the processing

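The directions of the effective number differences held under every alternative run, and the counts of called segments moved most. In ILTCkP against CD8SP, where edgeR called 0 segments (689 genes), DESeq2 called 2 (1997 genes) and the fit with no filter on low counts called 5 (2535 genes). Leaving out 1 library gave 0 to 12 (592 to 7017 genes), with the lone library of its group assumed to vary like the other group. Against PD1+ Tconv, where edgeR called 0 genes, DESeq2 called 1 segment for NK1.1+ ILTCk (1268 genes) and 1 for NK1.1- ILTCk (707 genes), and the fit with no filter called 2 (1249 genes) and 4 (799 genes). Scaling to the Trbv total called no segment. The cause of these changes was not tested. Trbv15 in NK1.1- ILTCk against PD1+ Tconv ran between -4.17 and 0.22 on the log2 scale over the libraries left out. The overlap difference ran between 3.05 and 10.0 percentage points over the libraries left out, was 4.39 without the leading segment of each library and 6.55 by the Morisita-Horn index. With families summed, Trbv13 led with 26.7% in ILTCkP, 21.2% in CD8SP, 26.3% for NK1.1+ ILTCk, 23.4% for NK1.1- ILTCk and 29.2% for PD1+ Tconv. In CD8SP the leading share was 12.04% over annotated genes alone and 11.9% for Trbv13-2 per base of transcript. Per base, Trbv13-2 also led NK1.1- ILTCk, at 10.5%, where Trbv19 led by mean share of counts, at 10.6%. Shares elsewhere in the text were not corrected for transcript length. Per 100 Trbc counts the Trbv level averaged 19.9 in ILTCkP, 26.5 in CD8SP, 31.1 for NK1.1+ ILTCk, 30.7 for NK1.1- ILTCk and 28.8 in PD1+ Tconv.

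Groups shared replicate numbers that the labels do not tie to a shared animal or day, so they were taken as numbers only. Deviations of same-numbered libraries correlated by 0.19 in the thymus and 0.37 to 0.43 in the tumour table. The fit with the replicate block called 5 segments lower in ILTCkP (Trbv17, Trbv19, Trbv20, Trbv26 and Trbv29, with 2212 genes in all) and 0 in the tumour comparisons (755, 298 and 0 genes). With 2 libraries a group, the exact permutation tests of single values cannot pass 0.05, and depth limits shares in NK1.1+ ILTCk replicate 2 most, where 3 counts are 0.243%.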
